A study of Rattus norvegicus with 6 samples.

Results

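Aif1 and 4 genes of antigen presentation by class II molecules of the major histocompatibility complex (Cd74, RT1-Da, RT1-Ba and RT1-Bb) were followed in male Holtzman rats, with and without acute sodium depletion, in the paraventricular nucleus of the hypothalamus. They are 5 of the 32402 gene identifiers in the deposited count table, and were chosen by identifier: Aif1 is ENSRNOG00000000853, Cd74 is ENSRNOG00000018735, RT1-Da is ENSRNOG00000032844, RT1-Ba is ENSRNOG00000000451 and RT1-Bb is ENSRNOG00000032708. The symbols came with that choice. The table carries identifiers alone and the reference gene table lists none of them (0 matched), so the pairing of symbol and identifier was not checked here. The treated rats received furosemide, a diuretic that acts on the loop of the kidney tubule, at 10 mg/kg, and then low-sodium food with distilled water for 24 h. The control rats carry only the label control, and their injection and diet are not stated in the labels. Each group held 9 rats, pooled by 3 into 3 libraries, so every value is a mean over 3 animals and rats within a pool cannot be told apart. The libraries held 20911950 to 22495415 counts, with all 3 furosemide totals above the control totals, and values are given as CPM, read counts scaled to a common library size with TMM factors.

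Aif1 encodes Iba1, a calcium-binding protein of microglia and other macrophages that serves as the usual stain for these cells in the brain. Class II molecules are pairs of an alpha and a beta chain that display peptides to CD4+ T cells. In the rat RT1-Ba and RT1-Bb encode the alpha and beta chain of the RT1.B molecule, RT1-Da encodes the alpha chain of the RT1.D molecule, and Cd74 encodes the invariant chain, which escorts both through the cell before peptide is loaded. Resting microglia carry little class II, while macrophages around vessels and in the meninges, dendritic cells and B cells carry more. Other microglial, macrophage, lymphocyte and blood markers could not be matched to identifiers, so the cells behind these transcripts were not checked. In tissue of this kind, fewer cells of a type and less RNA per cell cannot be told apart.

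Class II genes are known for a shared promoter layout, an X box bound by RFX and its partners and a Y box bound by NF-Y, on which the coactivator CIITA acts. The promoters are shown because that layout links genes whose levels are compared from pool to pool below. RefSeq promoters (build GRCr8, 250 bases before to 50 after the start of the gene) were found for 4 of the 5 genes, and Aif1 was not among them. Capitals mark matches, on either strand, to the X box searched here (CC, any 2 bases, G, any 2 bases, AC, any 3 bases, TG) and to the Y box core ATTGG, which reads CCAAT on the opposite strand. No match of one overlapped a match of the other.
Cd74, chr18:56526956-56527255, plus strand: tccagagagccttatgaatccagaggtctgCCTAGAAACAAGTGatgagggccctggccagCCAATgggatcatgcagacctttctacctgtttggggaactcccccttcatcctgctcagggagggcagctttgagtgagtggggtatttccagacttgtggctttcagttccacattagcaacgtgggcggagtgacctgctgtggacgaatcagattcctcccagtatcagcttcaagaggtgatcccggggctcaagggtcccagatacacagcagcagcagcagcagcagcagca
RT1-Da, chr20:4515165-4515464, plus strand: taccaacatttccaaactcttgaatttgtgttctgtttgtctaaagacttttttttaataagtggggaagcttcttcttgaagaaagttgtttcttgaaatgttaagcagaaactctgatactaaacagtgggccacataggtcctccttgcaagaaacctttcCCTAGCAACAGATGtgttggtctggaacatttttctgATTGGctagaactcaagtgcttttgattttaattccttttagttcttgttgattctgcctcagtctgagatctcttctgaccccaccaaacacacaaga
RT1-Ba, chr20:4576807-4577106, plus strand: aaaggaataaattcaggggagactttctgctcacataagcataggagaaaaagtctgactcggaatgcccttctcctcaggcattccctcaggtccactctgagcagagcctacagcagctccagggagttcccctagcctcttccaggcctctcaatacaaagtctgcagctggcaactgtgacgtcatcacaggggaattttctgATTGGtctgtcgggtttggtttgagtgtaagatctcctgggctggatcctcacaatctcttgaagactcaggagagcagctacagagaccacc
RT1-Bb, chr20:4604069-4604368, minus strand: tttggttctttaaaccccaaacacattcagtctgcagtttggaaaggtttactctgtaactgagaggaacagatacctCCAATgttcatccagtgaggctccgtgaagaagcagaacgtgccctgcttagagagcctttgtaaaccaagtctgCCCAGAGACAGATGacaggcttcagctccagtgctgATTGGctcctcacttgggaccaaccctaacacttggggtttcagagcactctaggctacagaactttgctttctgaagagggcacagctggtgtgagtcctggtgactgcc

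The X box was matched in 3 of the 4 promoters, those of Cd74, RT1-Da and RT1-Bb, and the Y box core in all 4. In those 3 promoters the X box was followed by a Y box core after 17 bases in Cd74, 23 in RT1-Da and 22 in RT1-Bb. The layouts were not the same: this core read CCAAT in Cd74 and ATTGG, the opposite orientation, in RT1-Da and RT1-Bb. The X box began 220 bases before the start of the gene in Cd74, 86 in RT1-Da and 97 in RT1-Bb. The RT1-Bb promoter held a second Y box core, upstream of its X box. Among all 33469 RefSeq promoters of this length, 37.5% held the Y box core, 3.79% the X box and 0.406% an X box with a Y box core within 30 bases. Promoters were also found for 17 other genes listed for class II presentation and its regulators. Of these, 2 (RT1-Db2 and RT1-DOb) held the X box and 1 (RT1-DOb) held it within 30 bases of a Y box core. The other RT1 genes among them (RT1-Db1, RT1-Ha, RT1-DMa and RT1-DOa) held the Y box core without an X box match. The rest were regulators and genes of antigen processing. A match describes these letters in this window and is not a measured binding site. Only exact matches to these patterns were sought, so the lack of one in RT1-Ba does not show that it has no X box.

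The edgeR quasi-likelihood test, fitted over all 16344 tested genes, placed none of the 5 genes under the adjusted threshold of 0.05 for furosemide against control. That test called 0% of the tested genes, with 1322 at an unadjusted p under 0.05 (8.09%), while limma-voom called 0, DESeq2 40 and the edgeR exact test 45. The exact test and limma-voom called none of the 5. DESeq2 gave an adjusted p to RT1-Bb alone (0.999) and left the other 4 without one. In the quasi-likelihood fit 3 of the 5 estimates were above 0 (Aif1, RT1-Ba and RT1-Bb) and 2 below (Cd74 and RT1-Da), with adjusted p between 0.611 and 0.829. The median log2 fold change of all tested genes was 0. All 3 furosemide libraries stood above all 3 controls for Aif1 and RT1-Ba, as they did for 6.69% of the tested genes, and all 3 below them for none of the 5, against 6.82%. For RT1-Ba the low-count filter bears on this count, as described with its values.

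**Figure D1:**
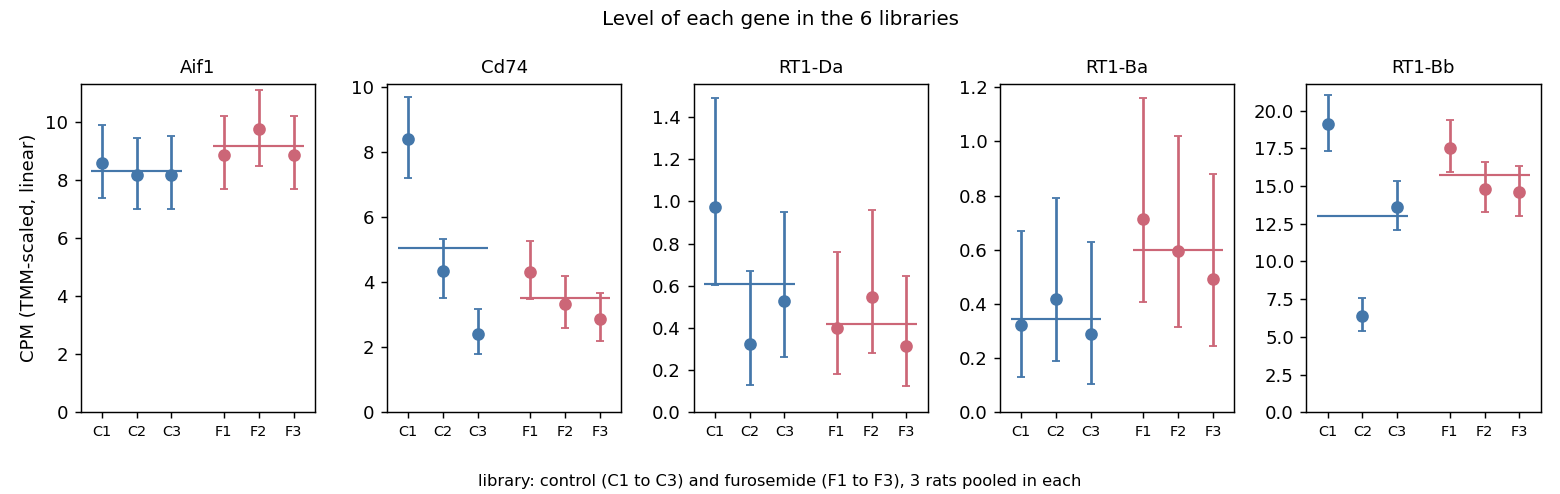
CPM of Aif1, Cd74, RT1-Da, RT1-Ba and RT1-Bb (linear axes from 0, 1 panel per gene) in the 3 control libraries (blue) and 3 furosemide libraries (red), with exact 95% Poisson intervals as error bars and group means as lines. Control 1 is highest for Cd74 at 8.39 CPM and control 2 is lowest for RT1-Bb at 6.39 CPM, while Aif1 stays between 8.15 and 9.73 CPM.

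Aif1, the microglia and macrophage marker, was the steadiest of the 5. It stood at 8.58, 8.15 and 8.18 CPM in control libraries 1, 2 and 3 and at 8.86, 9.73 and 8.86 CPM in furosemide libraries 1, 2 and 3. The furosemide values lay just above the controls without overlap, and furosemide 2 was the highest. Group means were 8.3 ± 0.238 CPM for control and 9.15 ± 0.503 CPM for furosemide (SD, n = 3 each). The difference was 0.14 on the log2 scale (standard error 0.09, edgeR adjusted p = 0.747). The 95% interval of the fold change ran from 0.959 to 1.27. Between the pools of a group the coefficient of variation (CV) was 2.86% in controls and 5.5% after furosemide, below the 7.52% and 7.01% that counting alone gives at 170 to 213 counts per library.

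Cd74, the invariant chain gene, varied far more between pools. It stood at 8.39, 4.35 and 2.41 CPM in control libraries 1, 2 and 3 and at 4.32, 3.34 and 2.86 CPM in furosemide libraries 1, 2 and 3. Control 1 was 1.93 times the next highest library, a ratio reached by 1 of 1427 tested genes of like level (mean CPM within 0.5 on the log2 scale), and the 3 furosemide values all fell within the range of the controls. The means were 5.05 ± 3.05 CPM and 3.51 ± 0.742 CPM (SD, n = 3 each), which differed by -0.53 on the log2 scale (standard error 0.32, edgeR adjusted p = 0.709). The direction of this difference rested on control 1. Without that library the log2 fold change was 0.05 (edgeR adjusted p = 0.97), and without control 3, the lowest library, it was -0.86 (edgeR adjusted p = 0.464). The limma-voom fit with sample quality weights gave -0.28.

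RT1-Da, the alpha chain of RT1.D, was close to the limit of this depth. Its counts were 21, 7 and 11 in control libraries 1, 2 and 3 and 9, 12 and 7 in furosemide libraries 1, 2 and 3, or 0.973, 0.324 and 0.530 CPM against 0.401, 0.548 and 0.313 CPM. Control 1 was again the highest library, at 1.78 times the next, and the other control values overlapped the furosemide values. The exact Poisson interval of the control 1 value, 0.603 to 1.49 CPM, overlapped that of each other library. Group means of 0.609 ± 0.332 and 0.421 ± 0.119 CPM (SD, n = 3 each) gave a log2 difference of -0.53 (standard error 0.43, edgeR adjusted p = 0.808). Without control 1 it was -0.02, without control 2 it was -0.84, and with limma-voom it was -0.32. The CV between control pools was 54.5%, against 27.7% from counting alone, and 28.2% between furosemide pools, against 32.7%.

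RT1-Ba, the alpha chain of RT1.B, had the fewest reads. There were 7, 9 and 6 counts in control libraries 1, 2 and 3 and 16, 13 and 11 counts in furosemide libraries 1, 2 and 3. In CPM these were 0.324, 0.417 and 0.289 in controls and 0.712, 0.594 and 0.492 after furosemide, so the groups did not overlap. The estimate was 1.73-fold with a 95% interval of 1.02 to 2.95, or 0.79 on the log2 scale (standard error 0.36, edgeR adjusted p = 0.611). Its unadjusted p was 0.0443, and those of the other 4 lay between 0.122 and 0.29. The gene entered the test because all 3 furosemide libraries reached the level the filter asks for, about 0.459 CPM, while none (0) of the controls did. A gene admitted in this way had to be higher after furosemide, so its separation and its place among the tested genes carry no weight of their own. In the edgeR fit without a low-count filter its unadjusted p was 0.0577 (adjusted p = 0.751). In that fit Cd74, with the opposite sign, was the gene of the 5 under 0.05, at an unadjusted p of 0.0458 (adjusted p = 0.722). The intervals of single libraries were wide: 0.106 to 0.629 CPM in control 3, the lowest, and 0.407 to 1.16 CPM in furosemide 1, the highest.

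RT1-Bb, the beta chain of RT1.B, had the most reads of the 5, and its spread came mostly from a different control library. It stood at 19.1, 6.39 and 13.6 CPM in control libraries 1, 2 and 3 and at 17.5, 14.8 and 14.6 CPM in furosemide libraries 1, 2 and 3. Control 2 was the lowest, less than every other library by 2.13 times or more, and control 1 the highest, so the furosemide values lay inside the control range. At 138 counts in control 2 and 283 to 411 in the others, the exact Poisson interval of control 2, 5.37 to 7.55 CPM, did not reach that of any other library. Among the 15191 genes that averaged 1 CPM or more, RT1-Bb was the only 1 that control 2 held at 2-fold or more below every other library. The same library held 20 genes 2-fold or more above every other, none of them among the 5. The means were 13 ± 6.35 and 15.7 ± 1.63 CPM (SD, n = 3 each), which differed by 0.27 on the log2 scale (standard error 0.24, edgeR adjusted p = 0.829). Without control 2 the estimate was -0.06 (edgeR adjusted p = 0.956). Without control 1 it was 0.65 (edgeR adjusted p = 0.38), and with limma-voom 0.47.

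**Figure D2:**
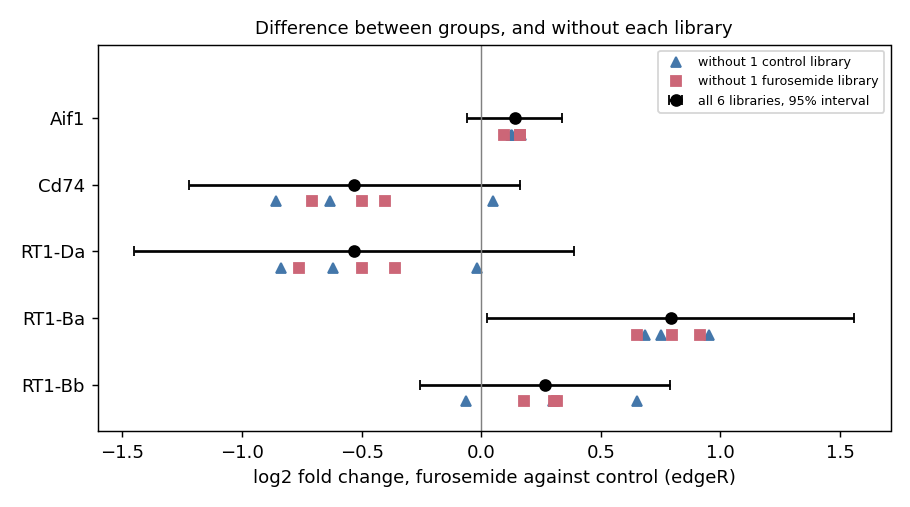
Log2 fold change of furosemide against control for each gene (black circles, bars are 95% intervals from the edgeR fit), with the estimate after leaving out each control library (triangles) or each furosemide library (squares). Cd74 moves from -0.53 to 0.05 without control 1 and RT1-Bb from 0.27 to -0.06 without control 2, while Aif1 stays between 0.09 and 0.17.

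The spread between pools set Cd74 and RT1-Bb apart from Aif1. The within-group SD of log2 CPM was 0.668 for Cd74, and 5 of the 1427 genes of like level (0.35%) had a larger one. For RT1-Bb it was 0.579, with 1 of 2425 genes of like level (0.0412%) above it. The median SD of those genes was 0.166 around Cd74 and 0.095 around RT1-Bb. Aif1 had an SD of 0.0622, and 90.8% of 1994 genes of like level had a larger one. RT1-Da and RT1-Ba, with few counts in every library, had SDs of 0.604 and 0.255, exceeded by 19.9% and 88.6% of genes of like level. These are ranks, given without a test.

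The ranks of Cd74 and RT1-Bb shifted when single libraries were left out, but both genes remained among the more variable for their level. The share of genes of like level with a larger SD than Cd74 was 1.75% without control 1, 1.61% without control 3 and 0.21% without furosemide 2. For RT1-Bb it was 3.26% without control 2 and 0.247% without control 1. For RT1-Da the share moved to 48.5% without control 1, 39.3% without control 2, 11.7% without control 3 and 13.1% without furosemide 1.

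For Cd74 and RT1-Bb the control pools were spread more widely than the furosemide pools. The CV of Cd74 was 60.4% between control pools and 21.2% between furosemide pools, and that of RT1-Bb was 48.8% and 10.4%. Counting alone gives 9.61% and 11.3% for Cd74 and 6% and 5.36% for RT1-Bb. The control CV of RT1-Bb was 4.67 times its furosemide CV, a ratio reached by 4.49% of tested genes, and that of Cd74 was 2.86 times, reached by 11.2%. The ratio was 1.93 for RT1-Da, 1.05 for RT1-Ba and 0.521 for Aif1, whose wider group was furosemide. Over all tested genes the median ratio was 1. With 3 pools a group this difference in spread was not tested. Single libraries moved these values on both sides. Without control 2 the control CV of RT1-Bb was 23.5%, and without furosemide 1 the furosemide CV was 1.24% for RT1-Bb and 10.7% for Cd74.

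**Figure D3:**
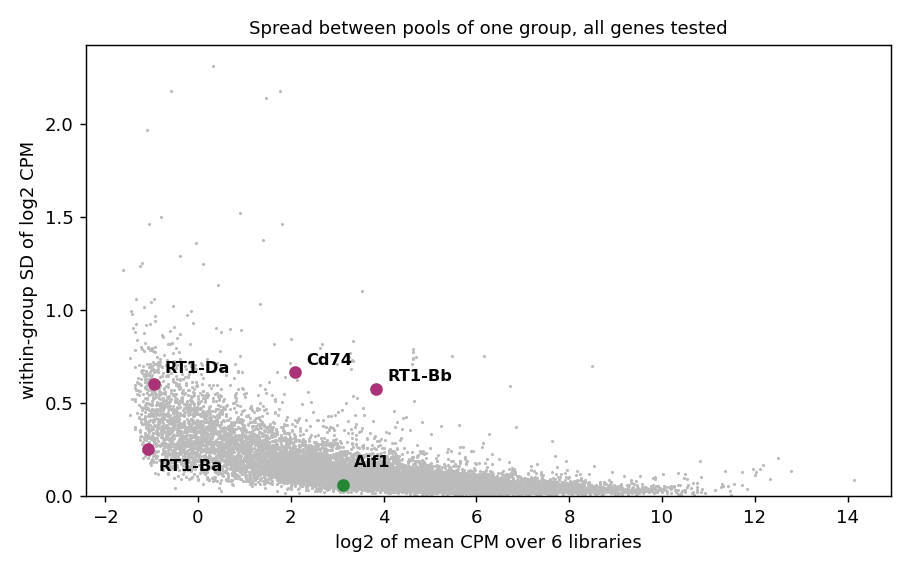
Within-group SD of log2 CPM against the log2 of mean CPM for the 16344 tested genes (grey), with Aif1 in green and the class II genes in purple. Cd74 at 0.668 and RT1-Bb at 0.579 lie above nearly all genes of like level, and Aif1 at 0.0622 lies in the lower part of the cloud.

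The class II genes did not keep fixed proportions from pool to pool. Ratios of read counts within a library do not depend on the scaling of libraries, and each ratio is compared here only with itself in other libraries. RT1-Bb reads per Cd74 read were 2.27, 1.47 and 5.66 in control libraries 1, 2 and 3 and 4.06, 4.45 and 5.09 in furosemide libraries 1, 2 and 3. The ratio was thus spread over 3.86-fold among controls and 1.25-fold after furosemide, with control 3 above and controls 1 and 2 below all furosemide libraries. RT1-Da reads per Cd74 read were 0.116, 0.0745 and 0.220 in controls and 0.0928, 0.164 and 0.109 after furosemide, with counts of RT1-Da too low to read an order among the libraries.

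RT1-Ba reads per Cd74 read were 0.0387, 0.0957 and 0.12 in control libraries 1, 2 and 3 and 0.165, 0.178 and 0.172 in furosemide libraries 1, 2 and 3. All furosemide values of this ratio lay above all controls, on 6 to 16 RT1-Ba counts per library and with the filter condition on RT1-Ba described above. RT1-Bb reads per RT1-Ba read, the chains of 1 molecule, numbered 58.7, 15.3 and 47.2 in control libraries 1, 2 and 3 and 24.6, 25 and 29.6 in furosemide libraries 1, 2 and 3. The controls lay on both sides of the furosemide values. Both chain genes are neighbours on chromosome 20 in the RefSeq order. The labels do not say how reads matching several class II genes were counted, which makes counts of these related genes uncertain. Relative to Aif1, the 4 class II genes together gave 3.35, 1.41 and 2.06 reads per Aif1 read in controls and 2.59, 1.99 and 2.06 after furosemide, overlapping groups. RT1-Bb made up most of that sum, from 55.6% in control 2 to 80.9% in control 3.

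**Figure D4:**
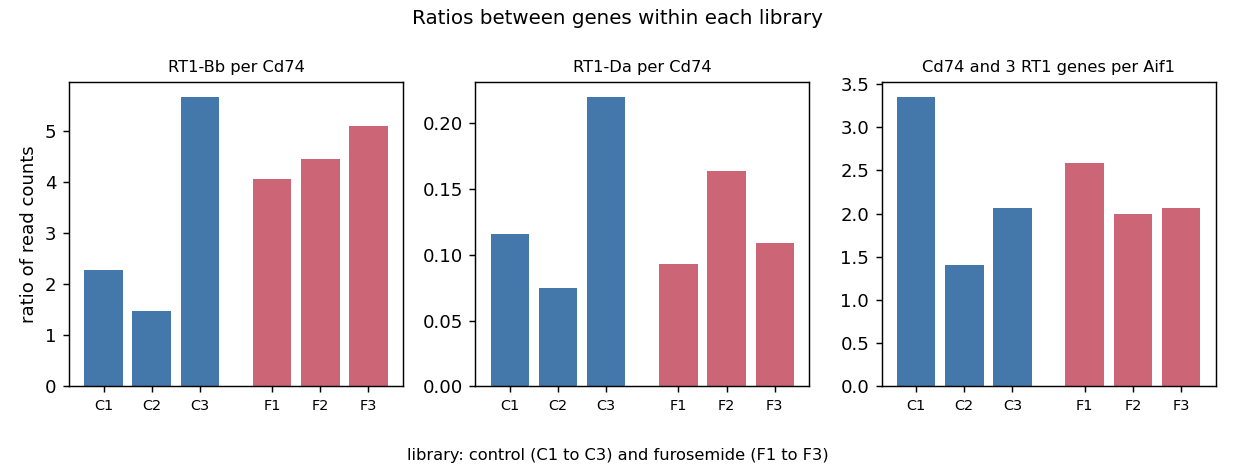
Ratios of read counts within each control (blue) and furosemide (red) library, for RT1-Bb per Cd74, RT1-Da per Cd74, and Cd74 with the 3 RT1 genes per Aif1. RT1-Bb per Cd74 runs from 1.47 to 5.66 among the controls and from 4.06 to 5.09 after furosemide.

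No correlation between the 5 genes was detectable over the 6 libraries on the log2 CPM scale. Of the 10 pairs of the 5 genes none passed an adjusted p of 0.05 in the exact permutation test, by Pearson's r (lowest adjusted p 0.772) or by Spearman's rho (lowest adjusted p 0.823). The highest r was 0.684 for Aif1 and RT1-Ba (exact permutation p = 0.111, rho 0.657 with exact permutation p = 0.175), and it was 0.851 without control 2 and furosemide 2, the libraries farthest from the median of Aif1. Both genes were higher in the furosemide group, and the r of their deviations from the group means was -0.09. Cd74 and RT1-Da had r = 0.591 (exact permutation p = 0.222, rho 0.314 with exact permutation p = 0.564), which was -0.04 without control 1 and control 3 and so rested on those libraries. RT1-Da and RT1-Bb had r = 0.569 (exact permutation p = 0.244, rho 0.600 with exact permutation p = 0.242), and 0.680 without control 1 and furosemide 3. For deviations from the group means their r was 0.844 (permutation p = 0.0389, adjusted p = 0.389), the lowest adjusted p of the 10 pairs on that measure. Aif1 and RT1-Da had r = 0.744 on it (permutation p = 0.0972, adjusted p = 0.486). The permutation moved deviations between the groups, and those within a group are not independent, so the p-values on this measure are approximate. RT1-Da, in both of these pairs, had 7 to 21 counts per library. Cd74 and RT1-Bb had r = 0.194 (exact permutation p = 0.661, rho 0.429 with exact permutation p = 0.419), and -0.41 without control 1 and control 3.

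Genes whose pattern over the 6 libraries was most like that of Cd74 or Aif1 were sought among 15188 other genes of at least 1 CPM. For Cd74 the closest were ENSRNOG00000017040 (r = 0.987, rho 1) and ENSRNOG00000000639 (r = 0.979, rho 0.943), and 17 genes had r over 0.95. The likeness was in the shape of the pattern on the log2 scale and not in its size. ENSRNOG00000017040 ran only from 53.5 to 57.7 CPM and ENSRNOG00000000639 from 5.73 to 6.81 CPM, where Cd74 ran over 3.49-fold. For Aif1 the closest were ENSRNOG00000018689 (r = 0.992, rho 1), at 11 to 14.3 CPM, and ENSRNOG00000004828 (r = 0.992, rho 0.943), at 1.2 to 2.15 CPM, and 36 genes had r over 0.95. These r values are the highest of many and describe 6 libraries. The identifiers have no symbol in the sources used here.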

How the data were processed

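RNA from the paraventricular nucleus was purified with QIAzol and RNeasy columns and sequenced from TruSeq mRNA libraries, per the labels' protocols. FastQC, TopHat, HTSeq and edgeR are named, without versions, per the submitters' processing notes. None of these sources gives the genome build, annotation or strand setting. The authors deposited raw read counts per gene identifier, unnormalized, in 6 columns assigned by name. Whether the spread between pools reflects animals or handling cannot be told apart. The edgeR p-values and intervals rest on a spread moderated across all tested genes, not on each gene's own spread alone. For genes that varied as much as Cd74 and RT1-Bb they can understate the spread between pools.

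In R 4.3.3, filterByExpr of edgeR 4.0.16 left 16344 genes (99.9% of counts), all 5 members among them, RT1-Ba through its furosemide libraries alone. TMM scaling and the quasi-likelihood F test (legacy form, group only) were followed by Benjamini-Hochberg adjustment over all tested genes, with a threshold of 0.05. The standard error is the log2 fold change divided by the root of F. Log2 CPM used a pseudocount of 0.5 counts. Poisson intervals cover counting error only. Correlations used all 720 pairings of the libraries. The fit was tested on simulated data drawn from its own estimated dispersions. That cannot show how it behaves for genes that vary more than their estimate.

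Alternatives were other scalings and filters, DESeq2 1.42.0, the exact test, limma-voom (limma 3.58.1), robust or non-legacy dispersions, a replicate block and leaving out each library. The rank of the spread without each library was added after the data were seen. The genes and lists were chosen with earlier results of these data known. The rule named the 5 genes whatever their result, and the 2 genes most like Cd74 and the 2 most like Aif1. The 5 gene lists and 12 marker lists fixed by symbol could not be tested, since no identifier matched a symbol. No transcript lengths were at hand, so genes of like level are alike in CPM only, and no order of expression per length is given. No 2 libraries were copies: the squared difference between 2 libraries was a median of 1.69 to 2.35 times the sampling noise.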

Additional observations from a re-analysis of the deposited data

How the results depend on the processing

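No alternative that gave an adjusted p brought any of the 5 genes past the threshold, and DESeq2 gave one to RT1-Bb alone. Over 17 alternatives the log2 fold changes of Aif1, RT1-Da and RT1-Ba kept their sign (RT1-Da and RT1-Ba over 16, since the filter of 1 CPM in 3 libraries removed them). For Aif1 and RT1-Ba the groups did not overlap, so leaving out a library could not change the sign. RT1-Ba also passed the main filter through its furosemide libraries alone. RT1-Da came as near to 0 as -0.016, without control 1. Cd74 ran from -0.86 to 0.05 when 1 library was left out, changing sign without control 1, and RT1-Bb from -0.064 to 0.653, changing sign without control 2. For both, these are the libraries farthest from the others. The count of genes past the threshold, 0, became 28 with no low-count filter, 40 with DESeq2, 45 with the edgeR exact test, 4 with robust dispersions and 0 to 17 without 1 library, highest without control 1. The cause was not tested. With a replicate block it was 1, but deviations from the group mean were not shared by same-numbered libraries (r = -0.05, -0.03 and -0.13 over genes), and 0 of the 6 libraries matched best with its own number, so the numbers were not taken to pair the pools. The Pearson r of deviations from the group means had the opposite sign for Aif1 and Cd74 (0.328), Aif1 and RT1-Ba (-0.0902), Cd74 and RT1-Ba (0.407) and RT1-Ba and RT1-Bb (-0.449). Depth limits RT1-Da and RT1-Ba, with 6 to 21 counts per library.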
